A study of Mus musculus with 8 samples.

Results

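The effect of adding the GSK3 inhibitor CHIR99021 to intestinal organoids that were already given valproic acid (VPA) was measured in 4 of the 8 samples of the study. The members are the 2 samples cultured with both compounds and the 2 samples cultured with VPA alone, chosen by their labelled treatment and by no measured value. Organoids are epithelial cultures grown in Matrigel, in which stem cells of the crypt give rise to absorptive and secretory cells. The samples came from 2 wild-type mouse small intestinal organoid lines, established independently, and each line gave 1 sample per treatment. The VPA group had 1 mM VPA for 6 days and the combined group had 1 mM VPA and 3 µM CHIR99021 for 6 days. The other 4 samples had control medium or 3 µM CHIR99021 without VPA for the same 6 days. They entered the shared estimate of the spread and served to set the CHIR99021 effect with VPA beside the effect without it. Each two-colour array held the sample in Cy5 and control RNA of the same line in Cy3, with no dye swap, and on the control arrays both dyes carried control RNA. Values below are log2 ratios of Cy5 over Cy3, given for line 1 and then line 2, and a difference is the combined ratio minus the VPA ratio.

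GSK3 is a kinase of the complex that marks beta-catenin for destruction. Its inhibition stabilises beta-catenin, which with TCF and LEF factors turns on Wnt target genes such as Axin2 and, in the crypt, keeps stem cells and Paneth cells. VPA, a short fatty acid with a branched chain, blocks histone deacetylases. Cells leaving the crypt lose Wnt signals and become enterocytes, which digest and absorb nutrients, or secretory cells.

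The share of spots whose Cy5 signal stood well above background ran from 60.6% to 64.6% over the arrays, and 0 spots were saturated. The median SD between the 2 lines was 0.0544 (log2) for the control group, 0.0945 for CHIR99021, 0.125 for VPA and 0.127 for the combination. All markers of stem, Paneth, goblet, enteroendocrine, tuft and enterocyte cells and of epithelium in the fixed marker list were well above background on the 4 arrays with VPA. Of the markers of other cell types, 6 of 11 for mesenchyme, 3 of 11 for immune cells and 4 of 10 for endothelium, glia and muscle were so on all 4 arrays. Dcn, Lum, Cd8a, Itgax, Pecam1, Cdh5, Kdr and Tek were well above background on none of the 4 and were not tested. Of the markers of these 3 groups, 7, 7 and 6 were tested between treatments, and 0 passed. The spread behind every p-value and every ± value was pooled over all groups. Each ± is thus limma's moderated SE and does not measure the spread between the 2 lines of that gene. It includes the control arrays, where control RNA was set against itself and no response to a compound could vary. Their median SD of 0.0544 was below the 0.125 and 0.127 of the compared groups, so the pooled spread may be too small for these. The main fit also left out the pairing by line. Line deviations of VPA and of the combination correlated at 0.755 across genes, which can make the unpaired spread too large for their difference. Since a group holds 2 lines, every p-value reflects these lines alone. In a culture of mixed cells, fewer cells of a type and less RNA per cell cannot be told apart.

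Among the genes that passed the test when CHIR99021 was added to VPA, falls outnumbered rises. Of 19255 genes tested, 198 fell (1.03%) and 17 rose (0.0883%), together 1.12%, at an adjusted p under 0.05 in limma. All 215 moved the same way in both lines. Called genes were chosen for a difference that was large beside the spread. This agreement, and the lack of overlap reported for called genes below, is therefore no added support. The share of all genes tested without overlap was not counted. Below the threshold the split was closer to even: at an unadjusted p under 0.05, 1440 genes were lower and 1266 higher, and of all genes tested 6152 were lower and 6739 higher in both lines. Among the falls, 139 exceeded 2-fold, and among the rises 3 did. The median called fall was -1.33, while the median over all genes tested was 0.0098. Counted without a test, 229 genes (1.19%) were over 2-fold lower in both lines and 3 genes (0.0156%) over 2-fold higher in both. With the line as a replicate block, 499 genes fell (2.59%) and 114 rose (0.592%), 613 in all (3.18%), so rises made up 18.6% of the calls there against 7.91% without the block. Of the 179 called falls with a gene symbol, 61 were members of the lists described here and 118 were in none.

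**Figure D1:**
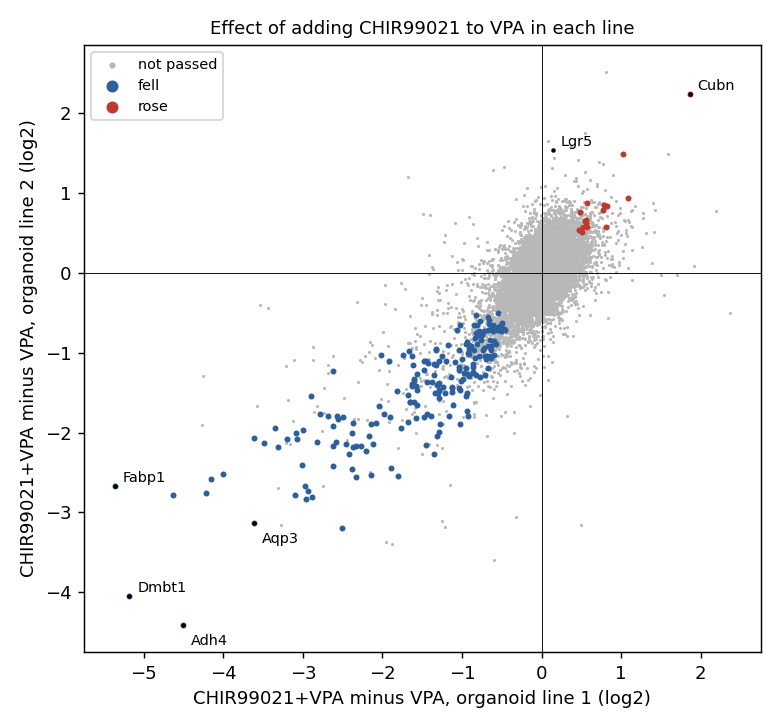
Difference between CHIR99021+VPA and VPA (log2) in organoid line 1 on the horizontal axis and line 2 on the vertical axis, 1 point per gene for 19255 genes, with called falls in blue and called rises in red. The called falls lie at the lower left and reach beyond -4 in both lines for Dmbt1 and Adh4, while Cubn stands alone among the called rises above 1.5 in both lines and Lgr5 differs between lines (0.14 and 1.54).

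Genes that carry fat through the enterocyte were among those that fell most. Fabp1, the liver-type fatty acid binding protein, had ratios of 3.22 and 1.95 with VPA and -2.14 and -0.72 with both compounds. It fell by 4.01 ± 0.60 (SE from the pooled spread, n = 2 lines per group, adjusted p = 0.0395), or 16.2-fold. Its differences within lines were -5.36 and -2.67. Fabp2, the intestinal form, stood at 2.24 and 2.36 with VPA and at -2.39 and -0.42 with both, and fell by 3.71 ± 0.57 (adjusted p = 0.0415). For both genes the VPA ratios lay above control RNA and the combined ratios below it, with no overlap. A second Fabp2 probe read -3.10.

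The list of fat absorption and lipoprotein genes had 14 of 38 tested members lower and 0 higher, with a median difference of -0.92. The share of falls to set beside this and the later lists is 1.03%, that over all genes tested. For list counts with the replicate block it is 2.59%. The lists were chosen with earlier results of these data known, so their counts and medians are descriptions and no independent support. The carboxylesterase Ces1f went from 0.14 and 0.32 to -4.08 and -2.43 (difference -3.49 ± 0.47, adjusted p = 0.0306), and its relative Ces2e from -0.32 and 0.01 to -1.75 and -1.75 (-1.60 ± 0.14, adjusted p = 0.0133). Carboxylesterases form a family of close copies, so their probes may share signal. Slc27a4, a fatty acid transporter, fell by 1.19 ± 0.10 (adjusted p = 0.0133), from 0.16 and 0.00 to -1.12 and -1.1. Dgat1, which makes triglycerides, fell by 0.95 ± 0.11 (adjusted p = 0.0242). Mttp, which loads lipid onto apolipoprotein B, fell by 1.07 ± 0.10 (adjusted p = 0.0173). Apoa1, a lipoprotein component, already stood at -1.81 and -2.25 with VPA and reached -4.43 and -3.48 with both (-1.92 ± 0.31, adjusted p = 0.0473). Creb3l3, a membrane-bound transcription factor of lipid metabolism, went from 0.25 and 0.43 to -2.12 and -1.44 (-2.12 ± 0.24, adjusted p = 0.0205). In each of these genes, chosen as called falls, the combined values lay below both VPA values. Neither control array enters this difference, so leaving out either of them, here and below, changes only the estimate of the spread. Of the 9 calls named for fat handling, 0 held without either control array (adjusted p 0.0881 to 0.156) and 2, Ces2e and Slc27a4, held without the VPA array of line 2 (0.0433 to 0.185). Without the combined array of line 2, 8 held.

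**Figure D2:**
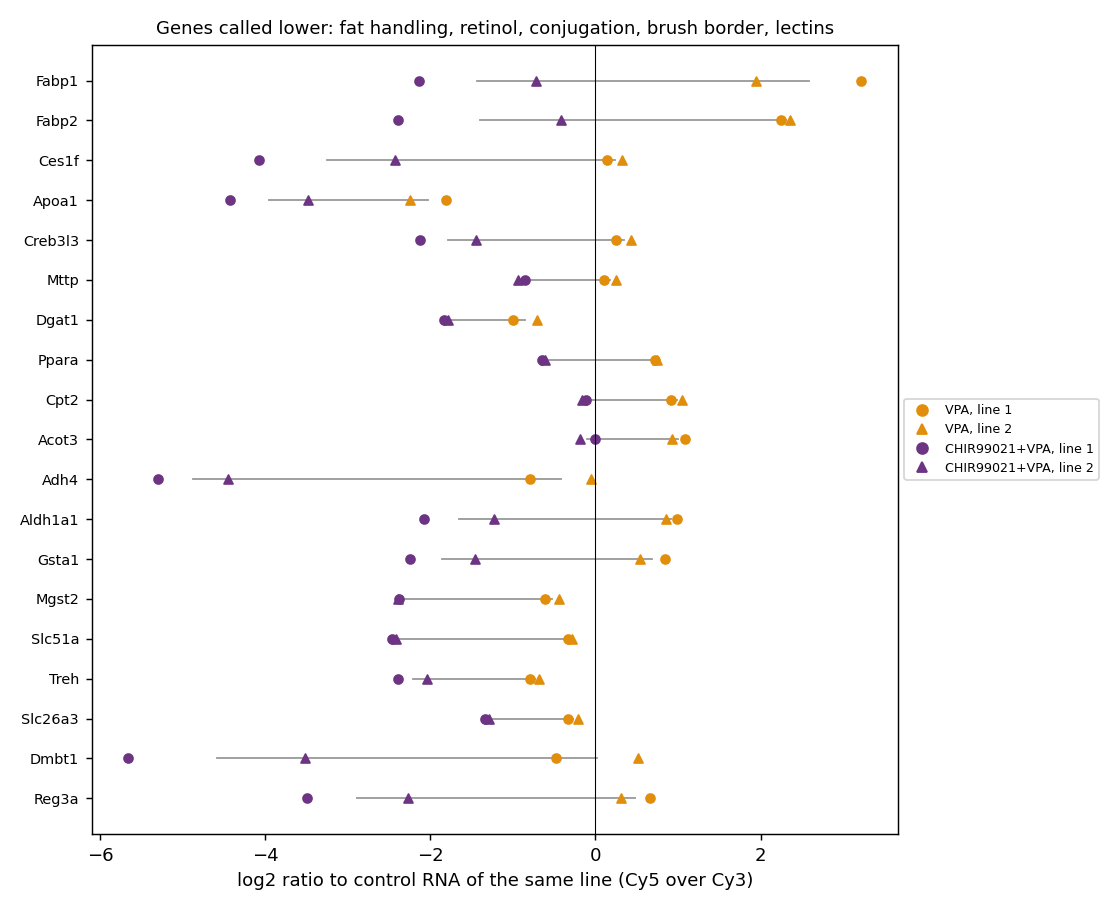
Log2 ratio to control RNA of the same line for 19 genes called lower, with VPA in orange and CHIR99021+VPA in purple, circles for line 1 and triangles for line 2, and a grey bar between the group means. In every gene shown, both purple points lie left of both orange points, which their choice as called falls favours. Ppara and Cpt2 lie above control RNA (0) with VPA and below it with both compounds.

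Genes of fatty acid oxidation fell together with Ppara, the nuclear receptor that drives many of them. Ppara had ratios of 0.72 and 0.75 with VPA and -0.65 and -0.61 with both, and fell by 1.37 ± 0.12 (adjusted p = 0.0133). Cpt2, a mitochondrial carnitine palmitoyltransferase, went from 0.92 and 1.05 to -0.12 and -0.17 (-1.13 ± 0.11, adjusted p = 0.0169). The lines agreed within 0.2 for both genes in each group, and the groups did not overlap. Acot3, a peroxisomal thioesterase, fell by 1.1 ± 0.11 (adjusted p = 0.0178) and was well above background on 1 of the 2 combined arrays. In the list of fatty acid oxidation and PPAR-responsive genes, 11 of 44 tested members fell and 0 rose, with a median of -0.80. Negative differences in both lines were found for 41 members, and for 6152 of all 19255 genes tested. With the line as a replicate block, 20 members of the list fell. Other called members included Hsd17b4, Acaa2, Acadvl, Ech1, Ehhadh, Crat and Crot, all enzymes of fatty acid breakdown or acyl transfer to carnitine. All 3 calls with values here held without the VPA array of line 1, without either CHIR99021 array and without either combined array. None of the 3 held without either control array (adjusted p 0.0881 to 0.0987) or without the VPA array of line 2 (0.0559 to 0.0632).

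Retinol and alcohol metabolism gave 5 falls and 0 rises among 27 tested members (median -0.64), and 13 falls with the replicate block. Among the 5 is Dgat1, which was also counted in the fat absorption list. Adh4, an alcohol dehydrogenase that also oxidises retinol, had ratios of -0.79 and -0.05 with VPA and -5.30 and -4.45 with both, and fell by 4.45 ± 0.38 (adjusted p = 0.0133) or 21.9-fold. Aldh1a1, a retinaldehyde dehydrogenase, went from 0.99 and 0.85 to -2.08 and -1.23 (-2.57 ± 0.32, adjusted p = 0.026), and the closely related Aldh1a7 from 0.80 and 0.23 to -0.76 and -1.04 (-1.42 ± 0.20, adjusted p = 0.0354). Neither pair of groups overlapped.

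The list of NRF2, glutathione and xenobiotic genes had 9 falls and 0 rises among 43 tested members, with a median of -0.56. Mgst2, a membrane-bound glutathione transferase, fell by 1.86 ± 0.14 (adjusted p = 0.00959), from -0.61 and -0.44 to -2.38 and -2.39. The soluble glutathione transferases Gsta1 and Gsta2 stood at 0.84 and 0.54 and at 0.57 and 0.43 with VPA. With both compounds Gsta1 read -2.25 and -1.47, and Gsta2 read -2.0 and -1.36. Gsta1 fell by 2.55 ± 0.30 (adjusted p = 0.0232) and Gsta2 fell by 2.18 ± 0.24 (adjusted p = 0.0204), and as near-identical copies they may share probe signal. Gstm2 went from 1.09 and 1.08 to -0.12 and -0.02 (-1.15 ± 0.11, adjusted p = 0.0175). The cytochrome P450 gene Cyp2b9, a member of a family of close copies, fell by 3.26 ± 0.45 (adjusted p = 0.0331), while a second probe read -1.75. Of the 8 calls named for retinol and conjugation, 0 held without either control array (adjusted p 0.0668 to 0.133) and 3 held without the VPA array of line 2 (Adh4, Aldh1a7 and Mgst2). Without the VPA array of line 1, Adh4, Mgst2 and Gstm2 held.

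Members of the list of brush border digestion and transport genes were lower in part. Of these, Slc51a is basolateral and so not a brush border gene itself. Slc51a, a subunit of the basolateral bile acid exporter, had ratios of -0.34 and -0.28 with VPA and -2.46 and -2.42 with both, and fell by 2.13 ± 0.12 (adjusted p = 0.00426). Treh, the trehalose-splitting enzyme, went from -0.79 and -0.68 to -2.40 and -2.04 (-1.48 ± 0.13, adjusted p = 0.015). Slc26a3, a chloride and bicarbonate exchanger, fell by 1.04 ± 0.10 (adjusted p = 0.0175). In each the lines lay close together and the groups apart. Of 50 tested members of the brush border list, 6 fell and 1, Cubn, rose (median -0.54), and with the replicate block 16 fell. The fixed enterocyte markers Alpi, Sis and Krt20 had large differences that did not pass. Alpi, intestinal alkaline phosphatase, read 0.55 and -0.37 with VPA and -1.47 and -1.95 with both (-1.80 ± 0.34, adjusted p = 0.0745), and a second probe read -0.26. Sis, sucrase-isomaltase, differed by -2.67 ± 0.56 (adjusted p = 0.0978), and Krt20, a keratin of differentiated cells, by -1.73 ± 0.40 (adjusted p = 0.124). With the replicate block all 3 passed (adjusted p = 0.0106, 0.0288 and 0.0354). The Slc51a call held without each of the 8 arrays in turn (adjusted p = 0.0332 without either control array), whereas Treh and Slc26a3 did not hold without either control array or without the VPA array of line 2.

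**Figure D3:**
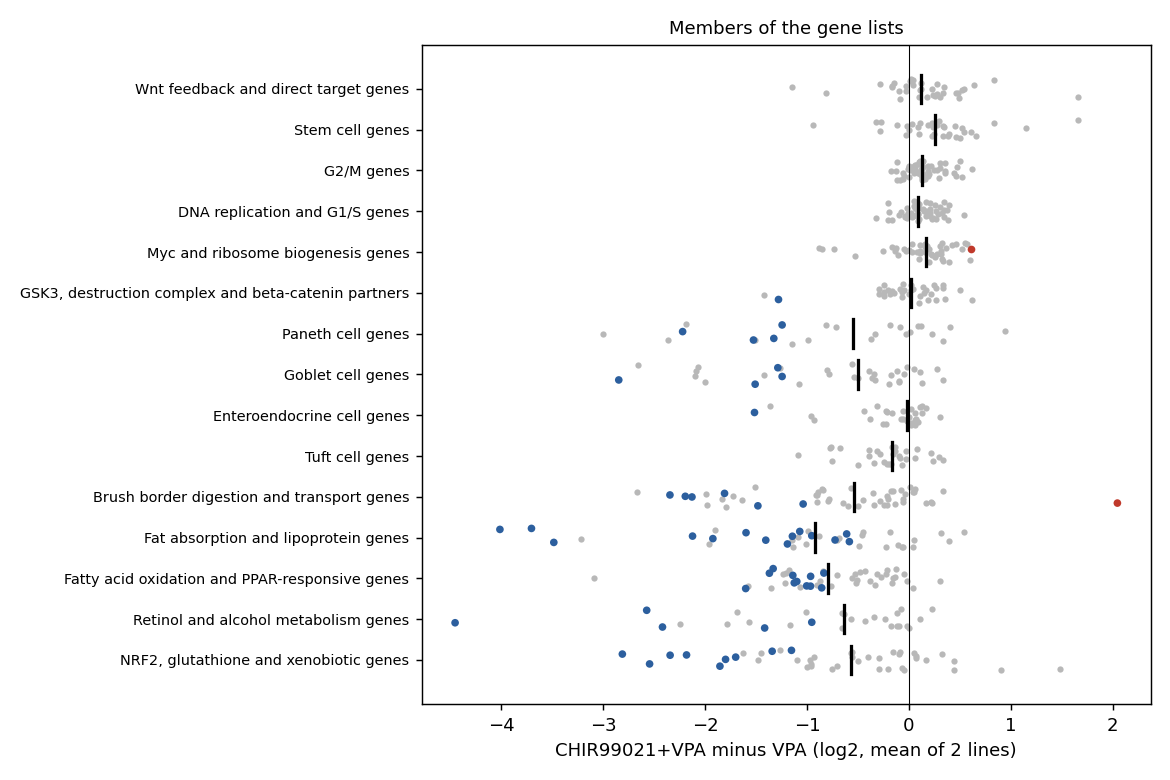
Difference between CHIR99021+VPA and VPA (log2, mean of 2 lines) for each tested member of 15 gene lists, with called falls in blue, called rises in red, other members in grey and the list median as a black bar; the vertical scatter within a list is random. The 5 lists at the bottom hold most of the blue points, with medians from -0.54 to -0.92, and the lists of Wnt feedback and target, stem cell, G2/M and DNA replication genes at the top hold no called gene.

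Several of the largest falls lay in other functions. Dmbt1, a secreted mucosal scavenger protein, had the largest named fall, from -0.48 and 0.52 to -5.66 and -3.52 (-4.61 ± 0.68, adjusted p = 0.038), or 24.4-fold. Reg3a, an antimicrobial lectin of a family of close copies, went from 0.66 and 0.31 to -3.49 and -2.28 (-3.37 ± 0.36, adjusted p = 0.0204). In the antimicrobial and inflammation list 3 of 25 tested members fell and 0 rose. Among channels and transporters, the water and glycerol channel Aqp3 fell by 3.37 ± 0.31 (adjusted p = 0.015), from 1.87 and 2.31 to -1.74 and -0.82. The proton channel gene Otop3 fell by 2.90 ± 0.22 (adjusted p = 0.00959), from 1.71 and 1.85 to -1.25 and -0.98. Slc6a3, known as the dopamine transporter of neurons, fell by 2.84 ± 0.45 (adjusted p = 0.0461), from 1.49 and 0.71 to -1.45 and -2.03. These 3 genes were above control RNA in both lines with VPA and below it in both with the combination. Scin, an actin-severing protein, fell by 2.85 ± 0.34 (adjusted p = 0.0242). Dnah2, an axonemal dynein, fell by 2.84 ± 0.36 (adjusted p = 0.0276), but a second probe read -0.02.

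Among regulators, Hnf4g, a nuclear receptor of the enterocyte, went from -0.18 and 0.31 to -1.39 and -1.19 (-1.36 ± 0.17, adjusted p = 0.026), and a second probe, well above background on 2 of the 4 arrays, read -0.19. Cdkn2b, a cyclin-dependent kinase inhibitor, fell by 1.52 ± 0.11 (adjusted p = 0.00959), from -0.12 and -0.32 to -1.68 and -1.78. Fas, a death receptor and p53 target, fell by 0.93 ± 0.13 (adjusted p = 0.0306). They were the called members among 29 tested cyclin-dependent kinase inhibitors and p53 targets. Arg2, a mitochondrial arginase, fell by 2.17 ± 0.28 (adjusted p = 0.0278). Of the 11 calls from Dmbt1 to Arg2, 0 held without either control array (adjusted p 0.0668 to 0.152) and Otop3 and Cdkn2b alone held without the VPA array of line 2.

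Some products of secretory cells fell. In the Paneth list, 4 of 24 tested members fell and 0 rose, and the list median was -1.31 in line 1 and -0.10 in line 2. The alpha-defensin Defa22, an antimicrobial peptide of Paneth granules, went from -0.81 and -1.19 to -2.48 and -2.18 (-1.33 ± 0.16, adjusted p = 0.0243). Defa3 went from -0.58 and -1.32 to -3.47 and -2.87 (-2.22 ± 0.27, adjusted p = 0.026), with a second probe at -1.51. Alpha-defensins are near-identical copies and their probes cannot be taken as separate genes. Ang4, an antimicrobial ribonuclease, went from 0.44 and 0.16 to -1.58 and -0.87 (-1.53 ± 0.23, adjusted p = 0.039). Lysozyme (Lyz1) and Mmp7, which processes defensins, did not pass. Lyz1 read 0.03 and -1.11 with VPA and -1.38 and -1.13 with both (adjusted p = 0.407), so line 2 hardly differed. Mmp7 read 0.49 and -1.12, then -0.79 and -1.46 (adjusted p = 0.531), and the groups overlapped.

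In the goblet list, 4 of 33 tested members fell and 0 rose (median -0.50), and 8 fell with the replicate block. Scin, given above among other functions, was 1 of the 4. Tff3, the trefoil peptide of goblet cells and also on the Paneth list, went from 0.01 and -0.34 to -1.34 and -1.48 (-1.24 ± 0.15, adjusted p = 0.0235). Agr2, a disulfide isomerase for mucin folding, fell by 1.51 ± 0.23 (adjusted p = 0.041), and the mucus protein gene Fcgbp by 1.29 ± 0.17 (adjusted p = 0.0284). Spdef, the goblet and Paneth transcription factor, read -1.32 and -1.95 with VPA and -2.59 and -2.83 with both (-1.08 ± 0.20, adjusted p = 0.0731; 0.0354 with the replicate block). Clca1, a goblet product, read -4.04 and -1.85, then -5.99 and -5.22 (adjusted p = 0.133). Of 31 enteroendocrine genes, 1 fell, the secreted lectin Reg4 (-1.52 ± 0.24, adjusted p = 0.0482), also 1 of the 3 falls in the antimicrobial list. Of 30 tuft genes 0 passed, and 1 did with the replicate block (Lrmp, -0.76, adjusted p = 0.0386). Chromogranin B (Chgb) differed by -1.37 ± 0.36 (adjusted p = 0.162), Chga by -0.23 ± 0.89 and the tuft kinase Dclk1 by -0.40 ± 0.93. The ratios of Chga and Dclk1 differed more between lines than between treatments. Of the 7 secretory calls, with Scin not counted here, 0 held without either control array (adjusted p 0.102 to 0.153). Without the VPA array of line 1 or of line 2, Defa22, Defa3 and Tff3 held. Without the combined array of line 1 Fcgbp alone held (adjusted p 0.0456 to 0.128), without that of line 2 the calls of Tff3 and Reg4 were lost, and without either CHIR99021 array Tff3 and Reg4 alone held (0.0155 to 0.0919).

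No listed Wnt target, stem cell, G2/M or DNA replication gene passed when CHIR99021 was added to VPA. Over all genes 1.12% passed and 0.0883% rose, so counts of 0 in lists of this size do not set these lists apart. Among 35 Wnt feedback and target genes 0 passed, 1 (Id2) with the replicate block, and the median was 0.12 (0.027 in line 1 and 0.27 in line 2). Axin2 read 0.36 and -0.11 with VPA and 0.33 and 0.46 with both (0.27 ± 0.17, adjusted p = 0.558), and Nkd1, another feedback inhibitor, 1.39 and 1.11, then 1.56 and 1.87 (0.46 ± 0.14, adjusted p = 0.214). Axin2 overlapped between groups and Nkd1 did not, but the share of all genes tested without overlap was not counted. The Wnt effector Tcf7 differed by 0.64 ± 0.14 (adjusted p = 0.114). Id2, an inhibitor of bHLH factors, read 1.12 and 0.98, then 1.62 and 1.56 (0.54 ± 0.10, adjusted p = 0.0731), and passed with the replicate block (adjusted p = 0.0263). In the Wnt lists 1 gene was called, Frat1, which binds GSK3. It fell by 1.29 ± 0.17 (adjusted p = 0.0276), from -1.17 and -0.66 to -2.30 and -2.11. A second Frat1 probe read -1.14 and another, above background on 2 of the 4 arrays, 0.02. Its relative Frat2 differed by -1.42 ± 0.23 (adjusted p = 0.0513; 0.0101 with the replicate block). Among the 8 arrays, the Frat1 call held only without the VPA array of line 1 (adjusted p = 0.115 without either control array).

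Among 35 stem cell genes 0 passed, 1 with the replicate block (Soat1, 0.66, adjusted p = 0.0353), and the median was 0.25, with 0.049 in line 1 and 0.52 in line 2. Lgr5, the receptor that marks crypt base stem cells, read 0.24 and -0.52 with VPA and 0.37 and 1.02 with both (0.84 ± 0.35, adjusted p = 0.35). The line 1 values nearly coincided, and the difference lay in line 2. Ascl2, a stem cell transcription factor, differed by 0.10 ± 0.14 and Sox9 by 0.22 ± 0.18. Of 52 G2/M genes and of 55 DNA replication genes 0 passed, and their medians were 0.12 and 0.092. With the replicate block 1 G2/M gene passed, the spindle checkpoint gene Bub3 (0.46, adjusted p = 0.0377, with a second probe at 0.098), and 0 of the DNA replication genes did. The proliferation marker Mki67 read -0.06 and -0.77, then -0.25 and -0.15 (adjusted p = 0.77). In the Myc and ribosome biogenesis list 1 of 44 tested members rose, the nucleolar protein gene Npm1, and 0 fell. With the replicate block 3 members rose, Ncl among them (0.52, adjusted p = 0.045, with other probes from -0.026 to 0.48), and 2 fell, Mycn among them (-0.52, adjusted p = 0.032, with a second probe at 0.040).

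**Figure D4:**
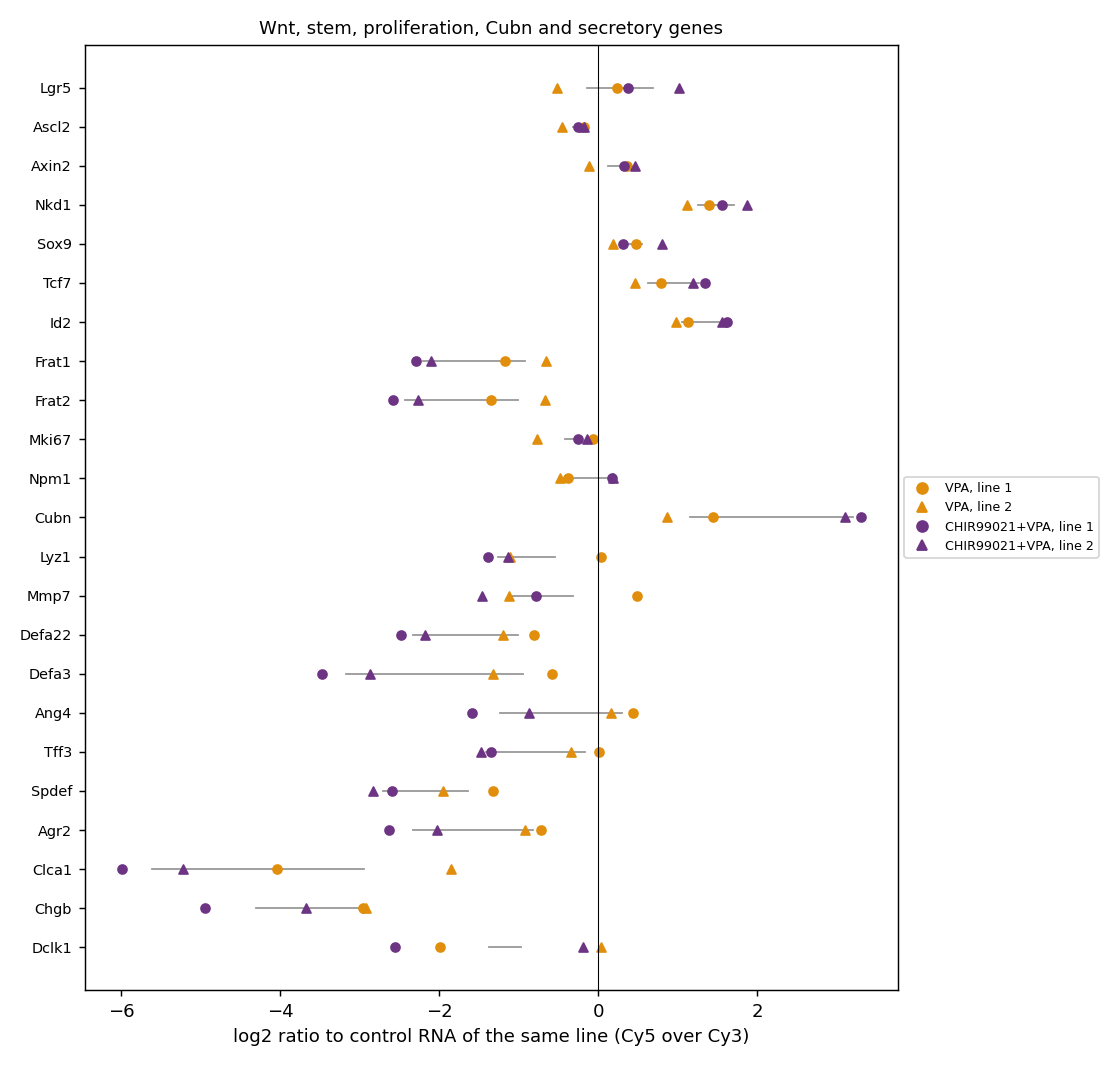
Log2 ratio to control RNA of the same line for 23 Wnt, stem, proliferation and secretory genes and Cubn, with symbols as in the plot of absorptive genes. Orange (VPA) and purple (both) points interleave for Axin2, Ascl2, Sox9, Mki67 and Mmp7, and lie apart by line for Dclk1. They separate for every other gene shown, called or not, with a narrow gap for Lgr5 and Lyz1. The share of all genes tested that separate was not counted, so separation does not set these genes apart. Purple lies higher for Lgr5, Nkd1, Tcf7, Id2, Npm1 and Cubn. It lies lower for Frat1, Frat2, Lyz1, Defa22, Defa3, Ang4, Tff3, Spdef, Agr2, Clca1 and Chgb.

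The largest called rise was Cubn, the endocytic receptor cubilin, which takes up the intrinsic factor and vitamin B12 complex. It read 1.44 and 0.87 with VPA and 3.30 and 3.10 with both, a rise of 2.05 ± 0.21 (adjusted p = 0.0176) or 4.13-fold, with no overlap. Its partner Amn, named after its values were seen, differed by -0.50 ± 0.29 (adjusted p = 0.518). The other 11 named rises were between 1.42 and 2.02-fold. Prpf19, a splicing and ubiquitin ligase factor, went from -1.22 and -0.98 to -0.13 and -0.03 (1.02 ± 0.13, adjusted p = 0.0276), so both compounds together left it close to control RNA. Npm1 went from -0.38 and -0.48 to 0.17 and 0.19 (0.61 ± 0.09, adjusted p = 0.0415). The secreted phospholipase Pla2g1b went from 0.01 and 0.08 to 0.79 and 0.92 (0.81 ± 0.11, adjusted p = 0.0306). Foxq1, a forkhead transcription factor, rose by 0.72 ± 0.11 (adjusted p = 0.0424) and the interferon-induced membrane protein gene Ifitm1 by 0.78 ± 0.09 (adjusted p = 0.0219). The smaller named rises were Atp6v1h, Plod3, Zfp692, Kcnab3, Glb1 and Rbbp8, from 0.69 down to 0.51. Cubn held without 5 of the 8 arrays, but not without either control array (adjusted p of the 12 rises 0.0987 to 0.169) or without the combined array of line 1 (0.0509 to 0.124). None of the other 11 rises held without any of the 8 arrays, and with median centring 3 of the 12 held (Cubn, Pla2g1b and Ifitm1).

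Promoter windows, the 250 bases before each annotated start in RefSeq (GRCm38.p6), were searched on both strands for 10 motif sets picked with the calls known. Shares are given for the 14122 windows of genes tested, from which the calls came, and for the 187 windows of called falls. The TCF/LEF letters CTTTGAA or CTTTGAT were in 5.79% of tested windows (7.48% of all 32851 windows), in 14 of 187 windows of called falls (7.49%) and in 4 of 8 windows of called rises, those of Cubn, Pla2g1b, Plod3 and Prpf19. The 8 windows belong to 7 genes, too few for the share to be read as a property of the rises. The degenerate DR1 nuclear receptor motif was in 0.312% of tested windows (0.338% of all) and in 2 of 187 for the falls (Fabp1 and Pdzk1). The HNF4 letters CAAAGTCCA were in 0.418% (0.384% of all) and in 4 of 187 (Cyp2c65, Neu3, Smcp and Treh). The antioxidant response letters TGACNNNGC were in 11.5% of tested windows (10.2% of all) and 17.1% of those of the falls, and GATA letters (AGATAAG) in 2.08% (2.74% of all) and 4.81%. CDX letters (TTTATNG or TTTACNG) were in 13.1% (16.7% of all) and 10.7%, TATAAA in 8.26% (12.4% of all) and 12.8%, and CACGTG in 7.98% (6.02% of all) and 6.95%. The stricter DR1 motif was in 0.0425% of tested windows (0.0335% of all) and in 0 of the falls, and the HNF1 motif in 0.0566% (0.0609% of all) and in 1 of the falls. No test was made of these shares. Of these other 9 sets, CACGTG alone was in a window of a called rise, 1 of 8. The windows of the largest rise and of 1 of the largest falls are shown 5′ to 3′ on the gene's strand, with TCF/LEF letters (Cubn) or DR1 letters (Fabp1) in capitals. The Cubn window is chr2:13491877-13492126 on the minus strand, with matches that begin 205 and 37 bases before the start, and the Fabp1 window is chr6:71199629-71199878 on the plus strand, with a match that begins 67 bases before it. A match of letters is a description and no binding was measured.
Cubn: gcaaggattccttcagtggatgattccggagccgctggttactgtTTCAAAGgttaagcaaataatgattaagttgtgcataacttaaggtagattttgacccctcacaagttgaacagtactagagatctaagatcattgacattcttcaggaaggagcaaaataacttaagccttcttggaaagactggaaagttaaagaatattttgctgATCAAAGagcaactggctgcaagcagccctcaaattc
Fabp1: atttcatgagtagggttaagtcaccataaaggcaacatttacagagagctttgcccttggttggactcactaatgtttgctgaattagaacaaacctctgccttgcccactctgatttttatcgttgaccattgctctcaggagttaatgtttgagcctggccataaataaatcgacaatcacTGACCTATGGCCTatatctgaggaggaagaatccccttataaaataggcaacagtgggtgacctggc

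The same compound was also given without VPA, which allows its effect to be set beside the effect with VPA; the 2 contrasts use different arrays but share the Cy3 control RNA and the variance estimate. CHIR99021 against control medium called 194 falls (1.01%) and 22 rises (0.114%). Of the 198 falls with VPA, 192 also had a negative difference without it. The difference was further below 0 with VPA than without it in 150 of the 198, and the median of the 198 was -1.33 with VPA and -0.925 without, and these genes were chosen on the contrast with VPA. The test of the difference itself, limma's interaction term, called 0 genes, with 511 at an unadjusted p under 0.05 and a smallest adjusted p of 0.25 (0 called with the replicate block, smallest adjusted p 0.334). No single gene was thereby shown to respond differently with VPA.

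The smallest interaction p belonged to Cpne5, a calcium-dependent membrane-binding protein gene, singled out after its values were seen. It stood at 3.86 and 3.70 with VPA and at 0.85 and 1.29 with both, and fell by 2.71 ± 0.16 (adjusted p = 0.00426), a call that held without each of the 8 arrays in turn. Without VPA its difference was -0.11 ± 0.16, which gives an interaction of -2.60 ± 0.23 (adjusted p = 0.25). Ang4 had -1.53 with VPA and 0.74 ± 0.23 without, Defa3 -2.22 and -0.16 ± 0.27, Cyp2b9 -3.26 and -0.49 ± 0.45, and Cubn 2.05 and 0.43 ± 0.21. For Treh (-1.48 and -1.75), Scin (-2.85 and -3.19), Cdkn2b (-1.52 and -1.33) and Frat1 (-1.29 and -1.63) the values with and without VPA lay within 0.4 of each other. Nkd1 differed by 0.46 with VPA and rose by 1.18 ± 0.14 without it (adjusted p = 0.0254).

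**Figure D5:**
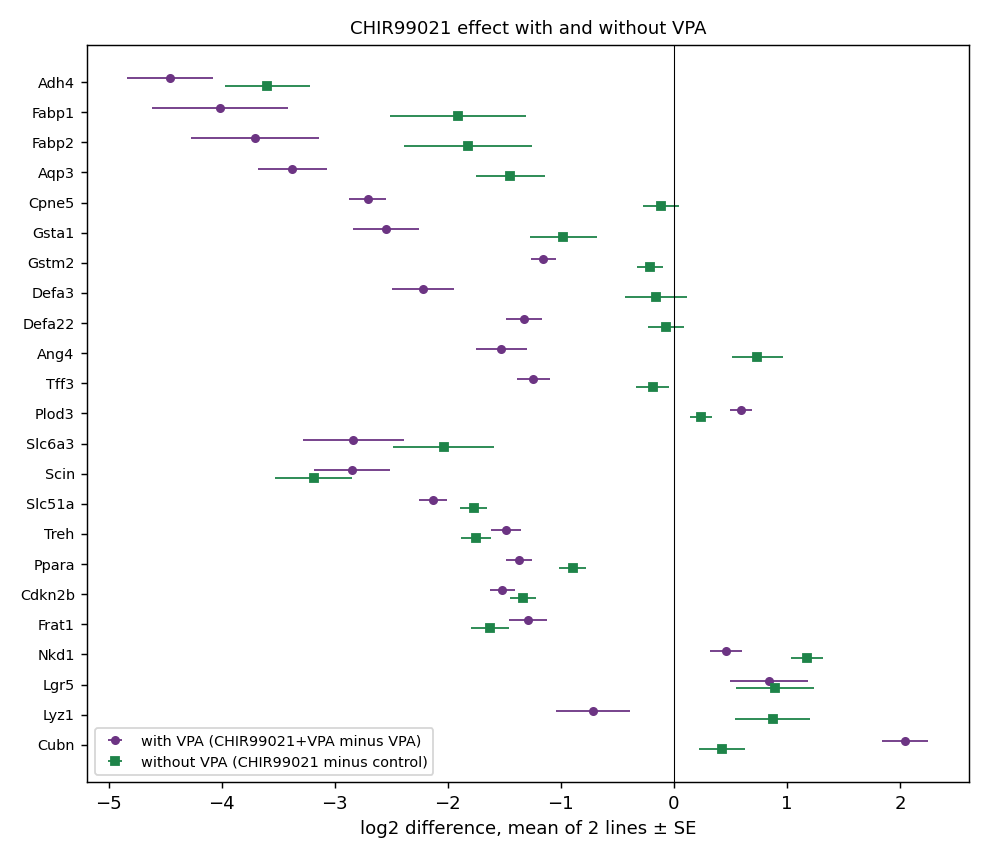
CHIR99021 effect on 23 genes (log2 difference, mean of 2 lines, ± SE from the pooled spread) with VPA in purple circles and without VPA in green squares. The 2 effects lie apart for Cpne5, Defa3, Defa22, Ang4, Tff3 and Cubn and close together for Treh, Scin, Cdkn2b, Frat1 and Lgr5, but the test of the difference passed for 0 genes.

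The calls depended on how the spread was estimated. The control and CHIR99021 arrays do not enter the difference between the compared groups. Leaving out 1 of them changed only the estimate of the spread, and did so identically for either array of that group. The 2 omissions within such a group are therefore 1 check. Fitted on the 4 arrays compared, without the other groups, limma called 0 genes in place of 215 (1446 at an unadjusted p under 0.05), and without either control array it called 7: Chp2, Cpne5, Fmo5, Reg3d, Slc51a, Slc5a4b and a transcript with no symbol.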

How the data were processed

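Total RNA of mouse small intestinal organoids was hybridised to Agilent two-colour arrays, Cy5 for the sample and Cy3 for control RNA of the same line, per the labels. Per the file headers, spots were read with Agilent Feature Extraction 10.5.1.1, and the deposited intensity values are median pixel brightness of spot and local background on a linear scale. Per the file headers, the log10 ratio per spot is Cy5 over Cy3 after background subtraction and dye normalisation. The other deposited columns used are flags of 0 or 1. The authors' deposited series table held log2 values that equalled that ratio, and served as a check. The sources used here do not give how the authors called genes.

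Signals were corrected with limma 3.58.1 (R 4.3.3) normexp, offset 50, in place of the planned mean signals, and normalised by loess (span 0.3) with controls at weight 0. Spots flagged as non-uniform or as feature population outliers were left out of the values and of the normexp fit. This set of flags was settled after counts of calls had been seen: it gave 215 calls, as did the non-uniformity flags of spot and background alone, while all flags gave 161 and feature non-uniformity alone 29. Accessions were matched to RefSeq (GRCm38.p6) for names: 27479 of 41174 probes matched. A gene was its brightest probe, kept where its Cy5 signal passed the software's background flag on both arrays of 1 group or more, which left 19255 genes, 13972 with a symbol; 78 were dropped for a flagged spot.

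The 8 arrays in 4 groups were fitted with lmFit and eBayes (4 residual and 2.68 prior degrees of freedom), with Benjamini-Hochberg adjustment over all genes and a threshold of 0.05. Replicate numbers are the organoid lines, per the labels, and each line was on 1 slide with all 4 groups. A difference between lines, wherever reported, may thus be one between slides. Deviations of same-numbered samples correlated at 0.122 to 0.755 across genes over the 6 pairs of groups. The highest value, 0.755, was that of VPA with CHIR99021+VPA, the pair compared here, and pairs with the control group gave 0.122 to 0.245. The main fit did not use this pairing by line, and a fit with the line as a block was tried as an alternative. The scripts were tested on simulated data. The members, the 37 gene lists and the motifs were chosen with earlier results of these data known. Named genes were 20 markers, the 12 largest called rises and falls with the same sign in both lines and a symbol, and up to 4 members of each list by adjusted p; some are left out for length.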

Additional observations from a re-analysis of the deposited data

Results flagged for a closer look

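The 2 lines moved in opposite directions for 5 named genes, with line 1 below 0 and line 2 above it: Sox9 (-0.163 and 0.611), Hes1 (-0.0681 and 0.0497), Axin2 (-0.0277 and 0.572), Mki67 (-0.189 and 0.623) and Ascl2 (-0.0712 and 0.266). The same held for the medians of 7 lists. These were the G2/M genes (-0.104 and 0.307), the DNA replication and G1/S genes (-0.0374 and 0.276), the GSK3 and destruction complex genes (-0.0384 and 0.0606) and the Wnt ligands and receptors (-0.0168 and 0.0198). The others were the Eph receptors and ephrins (-0.0574 and 0.0771), the secretory progenitor and Notch genes (-0.0289 and 0.0652) and the histone deacetylases and acetylases (-0.0374 and 0.0475). The medians of 3 lists were above 0 in line 1 and below it in line 2: microvillus and actin genes (0.00599 and -0.0312), EGF family ligands and receptors (0.076 and -0.0628) and arginine and polyamine enzymes (0.000172 and -0.0641). With 1 array per line and treatment, the difference between lines was not tested. Each line was on 1 slide with all 4 groups, so line and slide cannot be told apart.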

How the results depend on the processing

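Against 215 calls, the line as a replicate block gave 613, the compared groups alone 0, normexp on all spots 28, the software's own log ratios 34 and the Cy5 channel alone 2. Leaving out 1 array at a time gave 7 to 171: 7 without either control array, 77 without either CHIR99021 array, 171 and 41 without the VPA array of lines 1 and 2, and 84 and 137 without the combined array of lines 1 and 2. Of alternatives added after the data were seen, feature non-uniformity flags alone gave 29 and the compared groups with a replicate block 1297 (28.8% rises). The other alternatives gave 150 to 236. All 57 called genes named were called with the block, 12 with normexp on all spots, 11 with the software's ratios, 1 with Cy5 alone and 2 without either control array. The interaction called 0 genes under every alternative run except 1 without the VPA array of line 2. Among genes that did not pass, directions turned for Axin2 with Cy5 alone (-0.67), for Hes1 with median centring (0.0598) and Cy5 alone (0.00992). Leaving out 1 array at a time, values ran from -0.0362 to 0.231 for Ascl2, -0.0167 to 0.465 for Sox9, -0.137 to 0.571 for Mki67, -1.39 to 0.934 for Chga, -1.58 to 0.788 for Dclk1 and -0.163 to 0.145 for Hes1. The interaction was not refitted on the compared groups alone, which hold no control array. The number of arrays limits the precision, and a dim probe's ratio is compressed by the offset.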

Other observations

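In other gene groups few or no members passed, at counts that do not stand apart from the 1.12% over all genes. Of 30 histone deacetylase and acetylase genes, 31 interferon and antigen presentation genes, 36 sterol and fatty acid synthesis genes, 37 glycolysis and hypoxia-responsive genes and 36 BMP and TGF-beta genes, 0 passed in limma, with 0, 0, 3, 3 and 1 passing with the replicate block. Single members still lay far from 0: the lowest differences were -1.80 among the sterol and -1.58 among the glycolysis genes, and each of these lists had 1 member over 2-fold lower in both lines. Of 32 unfolded protein response genes 1 fell, Dnajb9, a co-chaperone of the endoplasmic reticulum (-0.69 ± 0.10, adjusted p = 0.0341). Of 23 EGF family genes 1 fell, Lrig3, a leucine-rich repeat protein (-0.76 ± 0.12, adjusted p = 0.041). Neither call held without either control array, and leaving out most other single arrays lost them too. Both were also lost on the compared groups alone, with normexp on all spots, with median centring, with the software's log ratios and with Cy5 alone.

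In 27 fetal-like and YAP-responsive genes the median was 0.00028 with VPA and 0.45 for CHIR99021 without VPA, with 0 and 1 genes higher, and the difference between these medians was not tested. The antimicrobial lectin Reg3g, named after its values were seen, read 3.80 and 3.87 with VPA and 3.11 and 1.82 with both (-1.37 ± 0.38, adjusted p = 0.18), and fell by 3.02 ± 0.38 with CHIR99021 without VPA (adjusted p = 0.0289).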
